A study of Mus musculus with 2 samples.

Results

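The bile acid and canalicular transporters are 10 genes of membrane proteins that carry bile salts, phospholipid, sterols and conjugated organic anions into and out of liver cells. They were taken by gene symbol from a fixed list and were found for 10 of 10 symbols, among 43346 mouse genes in the tables. By cell face, the list holds the uptake carriers Slc10a1 and Slco1b2, the canalicular exporters Abcb11, Abcc2, Abcb4, Abcg5 and Abcg8, and the exporters to blood Abcc3, Slc51a and Slc51b. Their levels were read in total RNA-seq of whole livers from healthy B6NCrl mouse embryos at embryonic day 11.5. The labels give 1 group of 2 biological replicates and no control, so levels within this tissue are described and no condition was tested. Replicate 1 was a pool of 109 embryos, replicate 2 a pool of unstated size, and both held male and female embryos. Each library was made from 10 ng of RNA longer than 200 bases with spiked-in control RNAs, and the depth was 34344230 estimated counts for replicate 1, against 31477397 for replicate 2.

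Hepatocytes make bile by pumping solutes across the canalicular membrane, a narrow strip of cell surface sealed by tight junctions between neighbouring cells. Bile salts return with portal blood, are taken up across the blood-facing membrane, are pumped out again at the canaliculus, and can leave by way of a further set of exporters when they build up in the cell. At mid-gestation the mouse liver is built from hepatoblasts, the common precursors of hepatocytes and bile duct cells, mixed with large numbers of blood-forming cells. In whole tissue, fewer cells of a type and less RNA per cell cannot be told apart.

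Stretches of DNA just before gene starts are shown for the most abundant of the 10 genes (Abcb4), the bile salt pump (Abcb11), the carrier without a count (Slco1b2), and the Abcg5 and Abcg8 pair, whose starts face away from each other. They are RefSeq sequences on build GRCm38.p6, 5′ to 3′ on the strand of the gene (the + strand for the pair). RefSeq windows of 250 bases before to 50 bases after a start were at hand for 9 of the 10 members (11 windows, out of 32851 for all genes). Abcc3 was the member without one. Capitals mark CG pairs in Abcb4 (chr5:8893471-8893720, + strand), Abcb11 (chr2:69342617-69342866, - strand) and Slco1b2 (chr6:141629268-141629517, + strand). In the stretch between Abcg5 and Abcg8 (chr17:84683012-84683120), capitals mark matches to the motifs described below.
Abcb4: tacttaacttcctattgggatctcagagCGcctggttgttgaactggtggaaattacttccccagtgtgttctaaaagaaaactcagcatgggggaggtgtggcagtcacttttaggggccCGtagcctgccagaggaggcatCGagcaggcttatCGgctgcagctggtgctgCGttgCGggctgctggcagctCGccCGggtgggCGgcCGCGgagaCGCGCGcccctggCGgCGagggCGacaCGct
Abcb11: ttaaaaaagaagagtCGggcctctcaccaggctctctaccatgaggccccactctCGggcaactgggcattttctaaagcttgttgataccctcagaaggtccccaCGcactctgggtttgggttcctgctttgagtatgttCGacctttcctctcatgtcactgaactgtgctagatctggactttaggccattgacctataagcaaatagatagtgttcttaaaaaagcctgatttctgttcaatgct
Slco1b2: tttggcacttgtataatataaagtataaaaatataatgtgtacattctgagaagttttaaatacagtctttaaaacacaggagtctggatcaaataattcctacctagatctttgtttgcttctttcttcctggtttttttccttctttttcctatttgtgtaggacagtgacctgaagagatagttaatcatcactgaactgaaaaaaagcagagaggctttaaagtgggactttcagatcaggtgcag
Abcg5-Abcg8: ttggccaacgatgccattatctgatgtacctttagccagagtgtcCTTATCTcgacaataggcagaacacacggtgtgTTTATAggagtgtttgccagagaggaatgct

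The Abcb4 stretch was the richest in GC of these 4, at 61.6% with 18 CG pairs, against 46.4% and 4 pairs for Abcb11 and 33.6% and 0 pairs for Slco1b2. Over the whole windows, Abcb4 had 21 CG pairs and 64% GC, more GC than 79.7% of all windows. The median window had 7 pairs and 52.7% GC. The Slco1b2 window, at 35.3% GC, exceeded 3.98% of all windows in GC. A second Abcg8 window, at an alternative start inside Abcg5 (84676052 to 84676351), also held 21 pairs, the Slco1b2 window held 0, and the remaining windows held between 1 and 6.

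Exact matches to 10 motifs were searched on both strands of each window. Elements read by regulators of bile acid transport or of liver genes were in no member window: the FXR inverted repeat (AGGTCA and TGACCT with 1 base between, in 0.00913% of all windows), the HNF4 direct repeat (AGGTCA and AGGTCA with 1 base between, 0.0396%), the HNF4-specific element CAAAGTCCA (0.475%), the HNF1 palindrome (GTTAAT and ATTAAC with 1 base between, 0.00913%), the LRH-1 element TCAAGGTCA (0.423%) and the FOXA core TGTTTAC (3.65%). These letters are rare in any window, so their absence here says only that they were not in these 300 bases. The antioxidant element core TGACNNNGC, present in 12.4% of all windows, was in that of Abcc2. The C/EBP core TTGCNNAA, in 10.8%, was in that of Slc10a1. Between Abcg5 and Abcg8, 109 bases separate the starts at 84683011 and 84683121. They hold a GATA box, AGATAAG on the Abcg5 strand, 52 bases before the Abcg5 start, and a TATA box, TATAAA on the Abcg5 strand, whose first base lies 84 bases before the Abcg5 start and whose last base lies 31 bases before the Abcg8 start. The GATA box occurs in 3.04% of all windows and the TATA box in 13.6%. The TATA box letters were also in windows of Slc10a1 and Slco1b2. None of these matches is a measured binding site.

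Levels are given as TPM, transcript abundance corrected for gene length and scaled to a fixed total per library, with the deposited credibility interval in brackets where a comparison rests on it. Means are ± SD over the 2 libraries (n = 2). Detection meant a TPM that reached 1 in each library. By this measure 3 of the 10 transporters were detected, Abcb4, Abcc2 and Abcc3, against a background of 56.6% of 21474 protein-coding genes. The summed level of the 10 genes was 28.4 TPM in replicate 1, against 34.7 TPM in replicate 2, and Abcb4 alone made up 68.9% and 69.9% of these sums. The median member had 0.620 TPM in replicate 1 and 0.385 TPM in replicate 2, where the median protein-coding gene had 2.82 and 2.87 TPM.

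**Figure D1:**
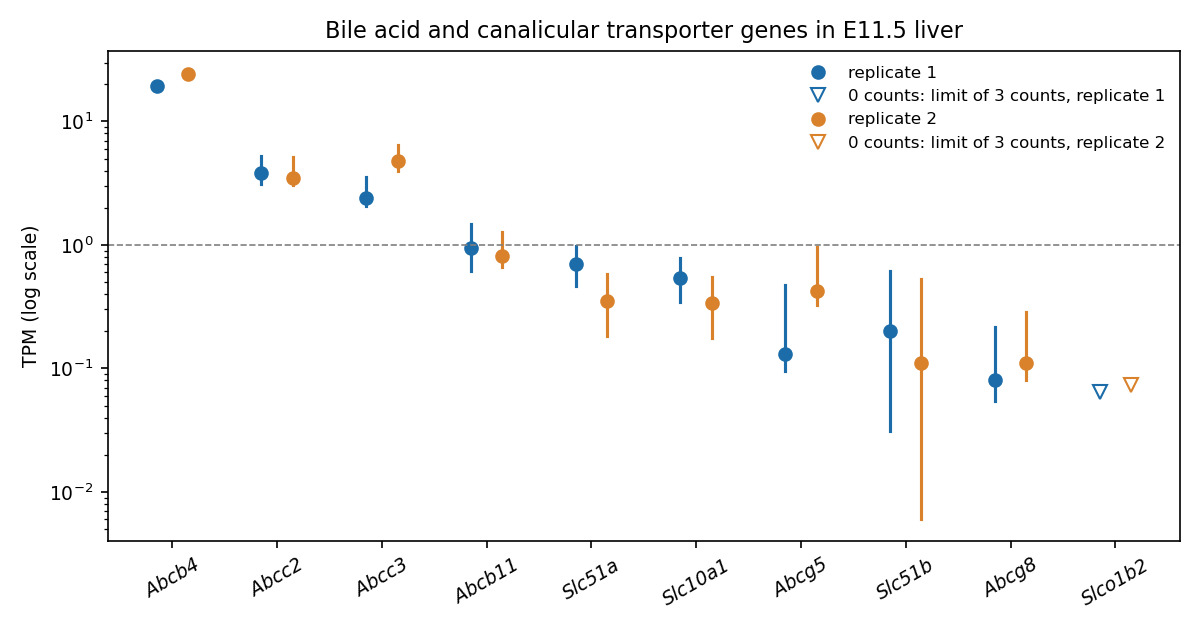
TPM on a log axis for each of the 10 transporter genes, from the highest mean to the lowest, in replicate 1 (blue) and replicate 2 (orange). Bars are the deposited credibility intervals, open triangles the TPM that 3 counts would give for Slco1b2, which had 0 counts, and the dashed line is 1 TPM. Abcb4, at 19.6 and 24.3 TPM, stands apart from Abcc2 and Abcc3, and the other 7 genes lie under the line.

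Of the canalicular exporters, Abcb4 was the most abundant. It encodes the flippase that delivers phosphatidylcholine to bile (ENSMUSG00000042476.8; GRCm38 chromosome 5, 8893717 to 8959231, + strand). Abcb4 had 19.6 TPM [18.3 to 20.0] in replicate 1 and 24.3 TPM [22.7 to 24.7] in replicate 2, a mean of 21.9 ± 3.34 TPM, resting on 2007 and 2175 counts. That mean exceeded the level of 75.7% of protein-coding genes. It was higher than that of Hnf4a, the transcription factor of liver identity, by 1.36-fold in replicate 1 and 1.51-fold in replicate 2. Albumin, the main plasma protein, was 30.01-fold and 25.99-fold above Abcb4 in the same libraries.

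Abcc2 encodes the pump that moves bilirubin glucuronides and other conjugates into bile (ENSMUSG00000025194.5; chromosome 19, 43782192 to 43840740, + strand). It had 3.81 TPM [3.10 to 5.26] in replicate 1 and 3.48 TPM [3.07 to 5.17] in replicate 2, a mean of 3.65 ± 0.233 TPM. This was near the middle of the protein-coding genes, above 52.4% of them.

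Abcb11 encodes the bile salt export pump, through which conjugated bile salts enter the canaliculus (ENSMUSG00000027048.11; chromosome 2, 69238282 to 69342616, - strand). It had 0.95 TPM [0.614 to 1.48] in replicate 1 and 0.810 TPM [0.662 to 1.26] in replicate 2, from 57 and 83 counts. Both values fell short of 1 TPM, but both intervals crossed it. Abcb4 exceeded Abcb11 in each library, by 20.6-fold in replicate 1 and 29.99-fold in replicate 2 in TPM. With 0.1 added to each TPM, the mean log2 ratio was 4.49 ± 0.37. The phospholipid and bile salt exporters, which share the canalicular membrane in adult liver, were thus on very different levels in whole-tissue RNA. Which cells carried the Abcb4 and Abcb11 RNA was not tested.

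Abcg5 and Abcg8 encode the subunits of 1 heterodimer that exports sterols into bile. Abcg5 (ENSMUSG00000040505.9; chromosome 17, 84658234 to 84683011, - strand) had 0.130 TPM in replicate 1 and 0.420 TPM in replicate 2, from 5 and 16 counts. Abcg8 (ENSMUSG00000024254.11; chromosome 17, 84676302 to 84700333, + strand) had 0.0800 TPM and 0.110 TPM, from 7 and 9 counts. Both subunits were present as a handful of reads, and by the order rule given below they were not separated (log2 ratio of TPM + 0.1 of 0.83 ± 0.67). Their intervals overlapped in replicate 1 (Abcg5 0.0950 to 0.476 TPM, Abcg8 0.0545 to 0.218 TPM) and did not in replicate 2 (Abcg5 0.326 to 0.959 TPM, Abcg8 0.0813 to 0.289 TPM), where Abcg5 was the higher. In the annotation used here the genes overlap by 6710 bases on opposite strands. The use of strand in counting is not stated in the sources used here, so reads there could count for either gene.

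Of the uptake carriers, Slc10a1 had a few counts and Slco1b2 had 0. Slc10a1 encodes the sodium-driven carrier that takes conjugated bile salts up from blood (ENSMUSG00000021135.7; chromosome 12, 80953183 to 80968705, - strand). It had 0.540 TPM [0.342 to 0.790] in replicate 1 and 0.340 TPM [0.175 to 0.553] in replicate 2. These values rest on 22 counts (95% exact Poisson interval 13.8 to 33.3) and 12 counts (6.20 to 20.96).

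Slco1b2 encodes a sodium-independent carrier of bile acids, bilirubin and drugs (ENSMUSG00000030236.8; chromosome 6, 141629518 to 141686646, + strand). It had 0 counts in both libraries. A count of 0 allows up to 3 counts, which for this gene is 0.0646 TPM in replicate 1 and 0.0740 TPM in replicate 2; the deposited intervals reach 0.343 and 0.391 TPM. The point TPM of Slc10a1 was 8.36-fold this limit of 3 counts in replicate 1 and 4.59-fold in replicate 2. That of Abcb4 was 303-fold and 328-fold the limit. These ratios are not lower bounds, since the deposited intervals of Slco1b2 reach above the limit. The deposited intervals of Slc10a1 and Slco1b2 overlapped, so by those intervals this pair was not separated.

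Of the exporters to blood, only Abcc3 was detected. It encodes an organic anion pump of the blood-facing membrane (ENSMUSG00000020865.12; chromosome 11, 94343295 to 94392997, - strand). Abcc3 had 2.41 TPM [2.06 to 3.52] in replicate 1 and 4.82 TPM [4.0 to 6.49] in replicate 2, a mean of 3.62 ± 1.70 TPM. The libraries differed in TPM by a factor of 2.00 and their intervals did not overlap, although the counts, 250 and 286, were close.

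Slc51a and Slc51b encode the subunits of the organic solute transporter, a heterodimer best known for passing bile acids from enterocytes of the ileum to blood. Slc51a (ENSMUSG00000035699.7; chromosome 16, 32474504 to 32487879, - strand) had 0.700 TPM [0.462 to 0.976] in replicate 1 and 0.350 TPM [0.183 to 0.581] in replicate 2, from 27 and 12 counts. Slc51b (ENSMUSG00000053862.5; chromosome 9, 65412714 to 65422955, - strand) had 0.200 TPM and 0.110 TPM, from 2 counts and 1 count. The partners were not separated, at a log2 ratio of 1.26 ± 0.22 with overlapping intervals. Slc51a shares 567 bases at its 3′ end with Pcyt1a on the opposite strand, a gene at 26.3 TPM (replicate 1) and 32.7 TPM (replicate 2), so the few Slc51a reads are uncertain. Slc51b likewise overlaps Rasl12 (0.81 and 0.95 TPM) by 2140 bases.

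By the rule of order that follows, Abcb4 stood first, Abcc2 and Abcc3 came next, and the other 7 genes lay below them. A pair of genes counted as ordered under 3 conditions: the same gene was higher in replicates 1 and 2, its deposited interval lay clear of the other gene's in each, and the mean log2 ratio of TPM + 0.1 was larger than the gap between the replicates' ratios. With 2 values the smallest p of an exact sign-flip test is 0.5, so none is given. Of the 45 pairs of members 25 were ordered and 20 were not. Abcb4 stood above all 9 others, with Abcc2 next at a 5.85-fold distance (log2 ratio 2.55 ± 0.31). Abcc2 and Abcc3 were not separated by this rule (log2 ratio 0.09 ± 0.78). Summed over protein-coding transcripts Abcc2 was the higher, at 2.37 against 1.93 TPM in replicate 1 and 2.93 against 2.31 TPM in replicate 2. That sum includes the 1926-base Abcc2-202, with 0.61 TPM in replicate 1 and 0.24 TPM in replicate 2. The 8027-base Abcc2-201 alone had 1.76 TPM in replicate 1, below the Abcc3 sum, and 2.69 TPM in replicate 2, above it. Their order on coding transcripts thus depends on the short transcript. Estimated counts, not corrected for length, were higher for Abcc2 (408 against 250 in replicate 1, 497 against 286 in replicate 2). In 14 of 14 pairs Abcc2 and Abcc3 exceeded the remaining 7 genes. The nearest of these was Abcb11, with Abcc3 above it by a log2 ratio of 1.85 ± 0.83.

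Among those 7 genes, 2 of 21 pairs were ordered. They had between 0 counts (Slco1b2) and 83 counts (Abcb11 in replicate 2), so a pair that was not ordered need not share a level. Abcb11 exceeded Abcg8 (5.03-fold on the log2(TPM + 0.1) scale) and Slco1b2. By mean TPM their order was Abcb11 (0.880 ± 0.0990), Slc51a (0.525 ± 0.247), Slc10a1 (0.440 ± 0.141), Abcg5 (0.275 ± 0.205), Slc51b (0.155 ± 0.0636), Abcg8 (0.0950 ± 0.0212) and Slco1b2 (0). No neighbours in that sequence were separated, and over all 10 genes 2 of 9 neighbouring pairs were ordered.

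Pairs with relatives outside the list placed the members within their families. Abcg2, an exporter of urate and drugs, had 96.3 TPM in replicate 1 and 113 TPM in replicate 2. It exceeded Abcb11, the bile salt pump of the same canalicular membrane in adult liver, by a log2 ratio of 6.74 ± 0.31. Abcg2 exceeded Abcb4 by 4.93-fold and 4.66-fold. These are levels of whole tissue, where the red cell markers summed to 949.9 and 1126.9 TPM. Which cells carried the Abcg2 RNA was not tested. Abcc1, a pump for glutathione conjugates, had 6.92 and 7.74 TPM and exceeded Abcc2 by 1.98-fold (log2 ratio 0.99 ± 0.20). Abcc4, which exports bile acids with glutathione and cyclic nucleotides, had 3.41 and 4.38 TPM and was not separated from Abcc3 (log2 ratio of Abcc3 over Abcc4 -0.17 ± 0.44). Slc51a and Slc10a1 were not separated either (0.18 ± 0.20), nor were Slco2b1 and Slco1b2. In all, 3 of the 10 pairs chosen by shared complex or cell face were ordered.

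The transcripts behind each gene level differed in kind. Abcb4, Slc51a, Slc10a1 and Slc51b have 1 transcript each in the tables and so carry no such uncertainty. Of the 5 members with counts and several transcripts, the main transcript differed between the libraries for 3, Abcc3, Abcb11 and Abcg5, and was the same for Abcc2 and Abcg8. The background is 9.25% of 8953 protein-coding genes with several transcripts, all of them detected; of the 5 members only Abcc2 and Abcc3 were. Protein-coding transcripts held at least 50% of the TPM in both libraries for 6 of the 10 members. Of these, Abcb4, Slc51a, Slc10a1, Slc51b and Abcg8 have only protein-coding transcripts, so their share was fixed by the annotation. Slco1b2, without a count, has no share. Among the members with counts and both kinds of transcript, Abcc2 passed and Abcc3, Abcb11 and Abcg5 did not. No share over all genes was taken beside this count.

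For Abcc3, the transcript with most TPM was the protein-coding Abcc3-206 in replicate 1 and the processed transcript Abcc3-203 in replicate 2. Abcc3-203 is 567 bases long, lies at chromosome 11, 94343655 to 94351186, and has no annotated protein. It had 0.490 TPM in replicate 1 and 2.35 TPM in replicate 2, from 5.87 and 24.8 estimated counts. Protein-coding Abcc3 transcripts held 1.93 TPM in replicate 1 and 2.31 TPM in replicate 2. The libraries thus differed by 2.00-fold in the TPM of the whole gene and by 1.197-fold (replicate 2 over replicate 1) in its protein-coding transcripts.

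Abcb11 showed the same kind of split in the other library. The 648-base processed transcript Abcb11-203 (chromosome 2, 69238310 to 69239078) held 0.560 TPM in replicate 1 and 0.0500 TPM in replicate 2, from 7.89 and 0.63 estimated counts. The 4893-base coding transcript Abcb11-202 held 0.400 TPM and 0.760 TPM, from 49.1 and 82.4 counts. In replicate 1, 86.2% of Abcb11 counts but 41.6% of its TPM lay on coding transcripts; in replicate 2 these shares were 99.2% and 93.8%. A few counts on a short transcript weigh heavily in a length-corrected sum.

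For Abcc2, the coding transcripts held 2.37 TPM in replicate 1 and 2.93 TPM in replicate 2, which is 62.2% and 84.3% of the gene. The 607-base retained-intron transcript Abcc2-203 held 1.12 and 0.550 TPM from 14.7 and 6.27 counts. Abcg5 was too shallow to describe by transcript, with 0.0600 and 0.260 TPM on coding transcripts. Counting coding transcripts alone, Abcb4, Abcc2 and Abcc3 remained the 3 detected members.

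**Figure D2:**
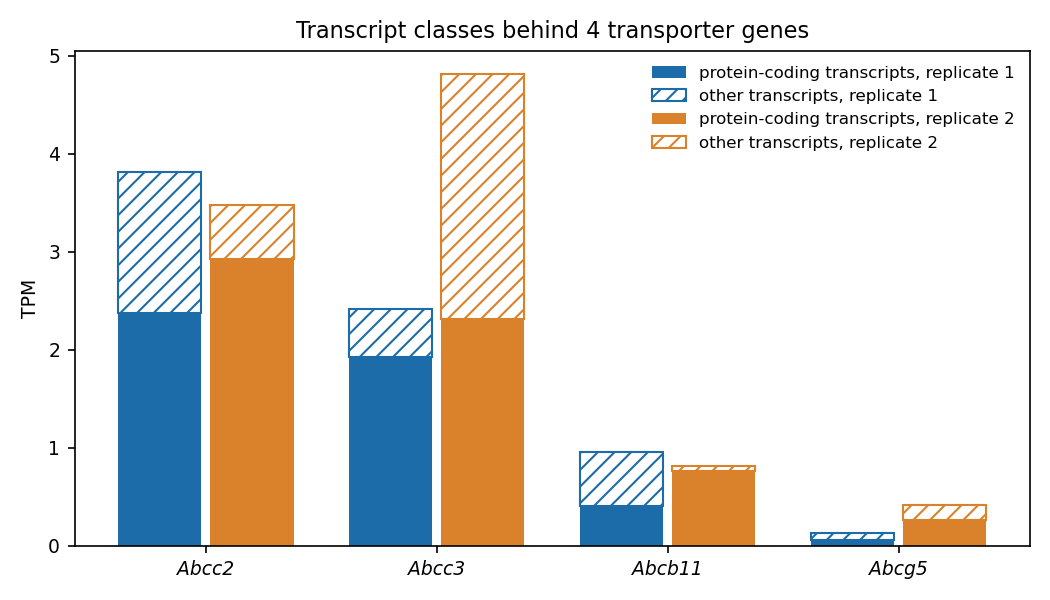
TPM of 4 transporter genes split into protein-coding transcripts (filled) and other transcripts (hatched), in replicate 1 (blue) and replicate 2 (orange). The filled bars of Abcc3, at 1.93 and 2.31 TPM, are close, while its hatched part is 0.490 TPM in replicate 1 and 2.50 TPM in replicate 2; Abcb11 has its hatched part mostly in replicate 1.

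Between the libraries, the transporters were compared on estimated counts scaled for library size and composition, as replicate 1 over replicate 2, with 95% exact binomial intervals that cover counting error only. A mean of 10 or more counts was reached by 7 members. Of these, 2 were at least 2-fold apart, 1 in each direction, against a background of 4.40% of 16607 genes (2.94% higher in replicate 1 and 1.46% higher in replicate 2). Slc51a was 2.04-fold higher in replicate 1 (log2 ratio 1.03, interval 0.03 to 2.17), and Abcg5 was lower in replicate 1 (log2 ratio -1.69, interval -3.59 to -0.28). Both have under 30 counts on average, and at 10 to under 30 counts 23.3% of 2323 genes were that far apart.

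The better-covered members differed less. Abcb4 had a log2 ratio of -0.23 (-0.32 to -0.14), Abcc2 of -0.40 (-0.59 to -0.20), Abcc3 of -0.31 (-0.56 to -0.06) and Abcb11 of -0.65 (-1.17 to -0.15). All 4 were somewhat lower in replicate 1. For Slc10a1 the log2 ratio was 0.74 (-0.32 to 1.91), an interval that includes no difference. The interval left out equality for 6 of the 7 members, against 39.0% of all genes at that depth. For Abcc2 and Abcb11 the order of the libraries was opposite in TPM, where replicate 1 was the higher, and it was as in the counts when coding transcripts alone were taken.

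**Figure D3:**
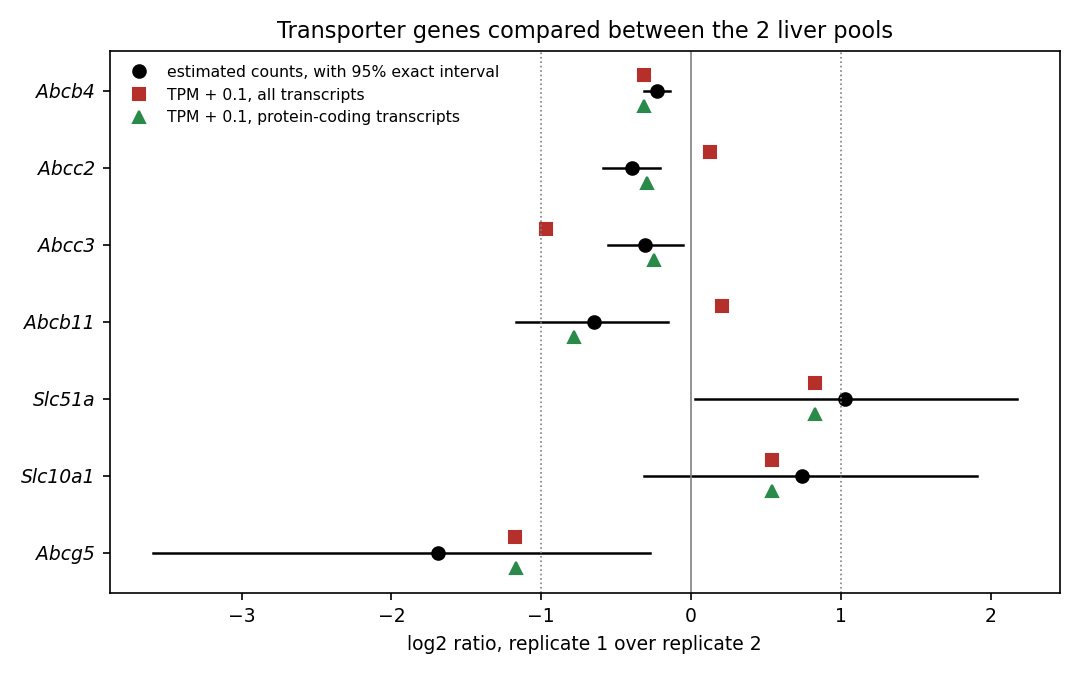
Log2 ratio of replicate 1 over replicate 2 for the 7 transporter genes averaging at least 10 counts, from estimated counts with 95% exact intervals (black), from TPM + 0.1 of all transcripts (red squares) and from TPM + 0.1 of protein-coding transcripts (green triangles). Dotted lines mark 2-fold. For Abcc2, Abcc3 and Abcb11 the red squares stand apart from the counts and the green triangles lie near them.

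Markers of other tissues were set beside these differences. Of 8 heart muscle genes, 7 were detected, and their summed level was 294.5 TPM in replicate 1 and 130.0 TPM in replicate 2 (median log2 ratio of counts 1.39); the part of heart tissue in the higher Slc51a counts of replicate 1 was not tested. Among the markers of enterocytes, which use Slc51a and Slc51b, Fabp2 (4.11 TPM in replicate 1 and 3.43 TPM in replicate 2) was the 1 detected of 7 genes, Fabp6 had 0 counts, and the sums were 5.16 and 4.41 TPM; their part in the Slc51a and Slc51b levels was not tested. Of 6 kidney tubule genes 0 were detected, with sums of 0.210 and 0.240 TPM. Yolk sac endoderm genes were detected for 3 of 6, with sums of 287.7 and 297.8 TPM. Most of each sum came from Apoc2 (186.79 and 189.58 TPM) and Cited1 (89.89 and 97.95 TPM), with Rhox5 at 9.69 and 9.45 TPM. The genes short of detection were Amn (1.2 and 0.7 TPM), Cubn (0.11 and 0.12 TPM) and Apoa4 (0 and 0.03 TPM). The part of yolk sac tissue in these sums and in the transporter levels was not tested. Red cell (6 of 6 detected), endothelial (6 of 6), macrophage (6 of 6) and bile duct genes (8 of 9) were present as well.

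The liver label held by its markers, and so did the early stage. The hepatoblast list reached detection in 14 of 14 genes; its median was 419 TPM in replicate 1 against 457 TPM in replicate 2. None of 10 genes of the mature hepatocyte was detected, and 4 of them had 0 counts. The highest of these 10 had 0.29 TPM in replicate 1, and the highest in replicate 2 had 0.57 TPM. The members' low median stood beside abundant hepatoblast markers and these low mature hepatocyte markers. Whether the stage has a part in that median was not tested.

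The other genes of bile formation gave a mixed picture. Over 5 lists of pathway neighbours, 55 of 86 genes (64.0%) were detected, set beside 56.6% of all protein-coding genes. Of the 20 other organic anion and Slc10 carriers, 6 were detected, the medians were 0.125 and 0.0700 TPM in replicates 1 and 2, and Slco1a1, Slco1a4, Slco1a5, Slco1a6 (carriers of organic anions) and Slc10a2 (the bile acid carrier of the ileum) had 0 counts in both libraries. This list was led by Slc10a3 (9.18 and 10.6 TPM), Slc10a7 (6.25 and 7.08 TPM), Slco3a1 (2.05 and 2.15 TPM) and the prostaglandin carrier Slco2a1 (1.81 and 1.33 TPM).

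Other ABC exporters and flippases were detected for 10 of 13 genes, and their medians were 6.92 TPM in replicate 1 and 7.74 TPM in replicate 2. Below Abcg2 came Tmem30a, the chaperone subunit of phospholipid flippases (35.8 and 41.4 TPM), Abcc5, a pump of organic anions (36.9 and 37.6 TPM), and the copper pump Atp7b (18.8 and 20.2 TPM).

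Bile acid synthesis genes were detected for 8 of 16. The highest were enzymes and carriers that also serve general peroxisomal and lipid metabolism: Scp2 (190 TPM in replicate 1 and 204 TPM in replicate 2), Hsd17b4 (46.3 and 51.6 TPM) and Slc27a2 (30.04 and 32.2 TPM). They were followed by Hsd3b7, an enzyme of the sterol ring steps (25.5 and 26.5 TPM). The rate-limiting enzyme Cyp7a1 had 0.0700 and 0.0900 TPM, with intervals that reached 0.968 TPM in replicate 1 and 1.11 TPM in replicate 2; it was picked out here after its values were seen.

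Of bile acid sensors and regulators, 12 of 17 were detected, led by the oxysterol receptor Nr1h2 (49.4 TPM in replicate 1 and 55.8 TPM in replicate 2), Hnf4a (14.4 and 16.1 TPM), the lipid receptor S1pr2 (13.8 and 13.5 TPM) and the oxysterol receptor Nr1h3 (11.2 and 9.84 TPM). Nr1h4, the bile acid receptor that in adult liver activates Abcb11, had 1.43 TPM in replicate 1 and 0.790 TPM in replicate 2, on either side of the detection level; it too was picked out after its values were seen. Genes of the canaliculus, polarity and tight junctions were detected for 19 of 20, with medians of 9.24 and 10.5 TPM. They were led by Rab11a of recycling endosomes (253 and 267 TPM), the membrane-to-actin linkers Rdx (100.2 and 105.7 TPM) and Ezr (73.4 and 78.3 TPM), and their scaffold partner Slc9a3r1 (89.5 and 97.3 TPM). The lowest were Cldn2 (0.08 and 0.18 TPM), Cldn3 (1.67 and 1.61 TPM), Ceacam1 (2.16 and 1.46 TPM) and Myo5b (2.43 and 3.01 TPM), picked out after their values were seen. Which cells carried the RNA of this list was not tested.

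**Figure D4:**
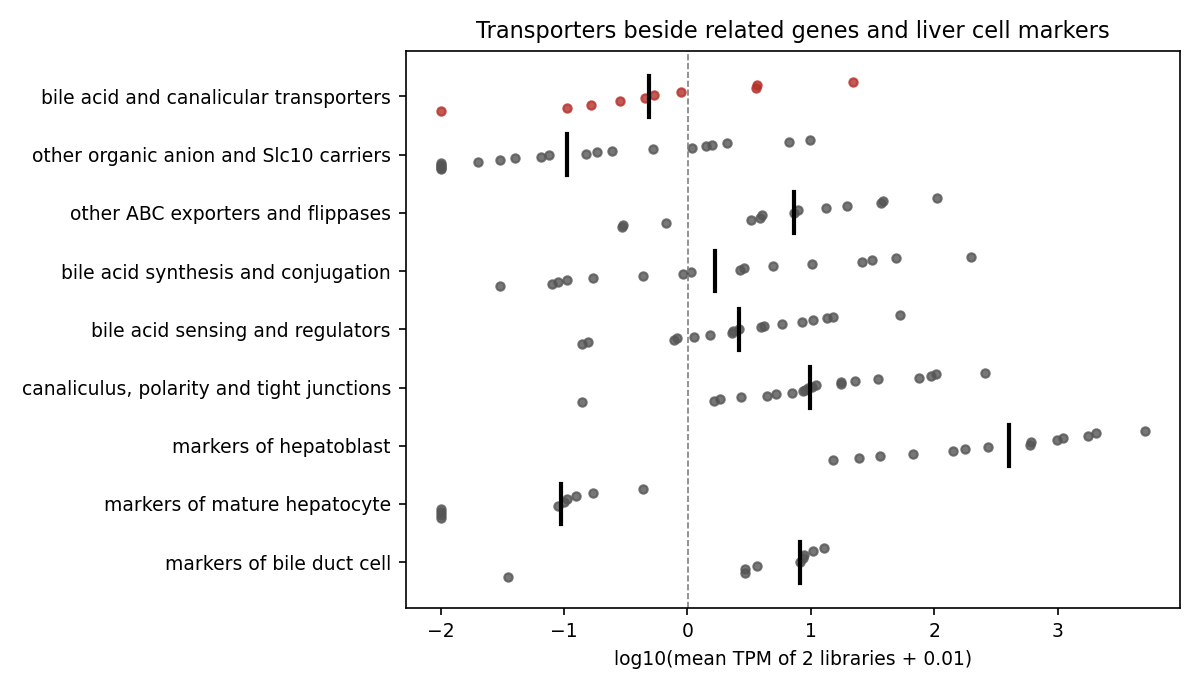
Each point is a gene at log10 of its mean TPM over the 2 libraries plus 0.01, for the 10 transporters (red), 5 lists of related genes and 3 lists of cell markers (grey); black bars are list medians and the dashed line is 1 TPM. Height within a row only spreads the points. The transporter median lies left of the line, the medians of the other organic anion carriers and of the mature hepatocyte markers lie further left, and all 14 hepatoblast genes lie to the right of the line.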

How the data were processed

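Total RNA of 2 pools of embryonic day 11.5 liver was sequenced, 1 library each. Per the labels, the assembly was mm10; GENCODE M4 is the annotation named in the submitters' text notes. Aligner, quantifier and strand setting: not given in the sources used here. Beside TPM and FPKM values, the authors deposited estimated counts, which need not be whole. Deposited TPM is relative to all features, and spike-ins held 14.6% of it in replicate 1 and 11.1% in replicate 2. Per the file headers, each transcript has a percent of its gene's level. The signal bounds deposited with TPM are credibility intervals of a posterior mean, of unstated level, so a point value can lie near an edge or outside. Slco1b2, at 0 TPM, lay under its lower bounds of 0.00504 TPM (replicate 1) and 0.00558 TPM (replicate 2). Slco2b1 in replicate 2 had 0.270 TPM, against an interval of 0.308 to 1.10 TPM.

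Members and lists were chosen with earlier results of these data known. All 10 members were named, with the genes of 10 pairs, the 4 genes of highest mean TPM in each related list and, of the bile acid transporter lists, genes with 0 counts. Counts were rounded for TMM scaling in edgeR 4.0.16 (R 4.3.3), and DESeq2 1.42.0 size factors were an alternative. Ratios between libraries used a pseudocount of 0.5 counts, and ratios of TPM used 0.1. Python 3.11.15 and scipy 1.17.1 did the rest, and the scripts were tested on simulated data. Symbols and coordinates came from GENCODE M21, which matched 42462 of 43346 genes, so coordinates can differ from M4. The libraries differed beyond sampling noise (chi-square of 9.62 per degree of freedom over 18218 genes) and count as 2 samples. Nothing in the labels ties the pools to separate litters. Intervals and limits of 3 counts cover counting error only.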

Additional observations from a re-analysis of the deposited data

How the results depend on the processing

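No paired analysis was possible because there is 1 group. The 3 detected members stayed 3 under each alternative tried except a threshold of 0.5 TPM, which gave 4. The members' median of 0.503 TPM lay between 0.385 and 0.620 with a replicate left out, ordered pairs (25) were 29 without either replicate and 21 with no pseudocount, and related genes detected (55) ranged from 48 to 60. Of the 10 chosen pairs, 3 were ordered in TPM, 4 without either replicate, and 8 in estimated counts, which are not corrected for length. Members with at least 50% of TPM on protein-coding transcripts in each library used (6) were 7 to 8 with a replicate left out, where the condition holds for 1 library only. Abcg5 over Abcg8 (log2 ratio 0.83) was 1.31 without replicate 1, and then ordered. With 1 library left, the conditions on agreement between the replicates fall away. The orders without either replicate, this one included, rest on the intervals of 1 library alone.

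The count of members 2-fold apart (2) was 1 with deposited TPM, 1 with a pseudocount of 5 counts, 1 with protein-coding transcripts alone (an alternative chosen after seeing the data) and 0 where the mean had to reach 100 counts, since Slc51a and Abcg5 then drop out. With deposited TPM, the log2 ratio of replicate 1 over replicate 2 turned to 0.21 for Abcb11 (-0.65 in counts) and 0.13 for Abcc2 (-0.40), whose non-coding transcripts are higher in replicate 1. Abcc3 over Abcc2 (log2 ratio -0.09) was 0.46 without replicate 1 and -0.64 without replicate 2, and Abcc3 over Abcc4 (-0.17) was 0.14 and -0.48; the cause was not tested. Depth limits the 6 genes with under 30 counts in each library.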
